A study of Mus musculus with 6 samples.

Results

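The T-box transcription factors were followed across the E14.0 mouse palate through 9 genes, Tbx22, Tbx1, Tbx2, Tbx3, Tbx4, Tbx5, Tbx15, Tbx18 and Tbx20, which were matched by symbol among the 56691 genes counted. They belong to a family of 17 genes, and the other 8 are described more briefly. Bulk RNA-seq was carried out on palatal shelves of unmodified C57BL/6J embryos at embryonic day 14.0, microdissected into the anterior 1/3 and the posterior 1/3, with 3 libraries from each region. No genotype or treatment separated the groups, and whether the tissue of several embryos was pooled in a library is not given in the sources used here. The 3 libraries of a region are labelled as replicates, and nothing in the labels ties them to separate litters, so that p-values measure the spread between these libraries.

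T-box proteins share a DNA-binding domain first described in Brachyury, the product of Tbxt, and act as activators or repressors of transcription. Tbx22 is the T-box gene best known from the palate, since loss of its function causes X-linked cleft palate with ankyloglossia. Tbx2 and Tbx3 are sister genes that act in limb and heart development, Tbx15 and Tbx18 are sister genes of Tbx22 that act in skeletal and other mesenchyme, Tbx1 is the main gene of DiGeorge syndrome, Tbx4 and Tbx5 act in the limb buds, and Tbx20 and Tbx5 act in the heart.

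The shared T-box sequence of these genes is illustrated by a coding stretch of 27 bases, chosen because it holds the longest identical coding run of Tbx15 and Tbx18, 23 bases long, so that their likeness there was fixed by the choice. It is shown for the 7 members where 1 best match lay within a single coding exon, and not for Tbx4, whose match spans exons 4 and 5, or Tbx5, which had 2 equal matches. The sequences are from the longest coding transcript of each gene in GENCODE M21 (GRCm38), 5′ to 3′ on the strand of the gene, and capitals mark the bases that differ from Tbx22.
Tbx22, chrX:107680118-107680144, plus strand, exon 5: cacagctcacagtggatggtagctgga
Tbx15, chr3:99314754-99314780, plus strand, exon 4: caTagctcTAagtggatggtGgctggC
Tbx18, chr9:87724437-87724463, minus strand, exon 4: caTagctcTAagtggatggtGgcAgga
Tbx2, chr11:85834726-85834752, plus strand, exon 2: cacaActcCcGCtggatggtGgcAggC
Tbx3, chr5:119674132-119674158, plus strand, exon 2: cacaActcTcGgtggatggtGgcCggT
Tbx1, chr16:18584219-18584245, minus strand, exon 3: caTagctcCTCCtggCtggtGgcCggC
Tbx20, chr9:24769679-24769705, minus strand, exon 3: cacCgGtcaTCCtggCtggtGgctggC
Tbx15 and Tbx18 each differed from Tbx22 at 5 of the 27 bases, Tbx3 at 6, Tbx2 at 7, Tbx20 at 8 and Tbx1 at 9. Among the 36 pairs of members, the longest identical run of a pair was between 11 and 42 bases, and 2 pairs, Tbx22 with Tbx5 (42 bases) and Tbx20 with Tbx4 (32 bases), shared a run of 30 bases or more, which was not coding in both genes. The read length is not given in the sources used here.

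The libraries held between 11378736 and 15172733 reverse-stranded gene counts, and a count of 3, the limit that a count of 0 allows, corresponded to 0.206 to 0.260 CPM, where CPM are counts scaled to a common library total after edgeR's TMM adjustment of the library sizes. The labels were checked on Shox2 as anterior and Meox2 as posterior reference gene, and each library matched its own (Shox2 386 ± 31.7 against 11.7 ± 6.09 CPM, Meox2 7.83 ± 0.958 against 192 ± 47.4 CPM, anterior before posterior, SD of 3 libraries). Posterior replicates 2 and 3 stood apart, with 6.12% and 5.94% of reads mapping to several places against 8.45% to 8.77% in the other 4 libraries, and with 0.973% and 1.14% mitochondrial counts against 2.70% to 2.97%. Replicate 2 of each region was female and replicates 1 and 3 were male, read from Xist and Y-linked genes. All 6 palatal mesenchyme markers, among them Osr2 and Prrx1, were detected, with 4 of 6 called (2 in each direction) and a summed level of 1777 to 1940 CPM in the anterior and 1514 to 1842 CPM in the posterior libraries. Skeletal muscle markers summed to 12.4 to 16.7 CPM in the anterior and 638 to 1117 CPM in the posterior libraries, with 10 of 10 called higher in the posterior palate, and chondrocyte markers to 173 to 199 and 573 to 741 CPM, with 3 of 7 called, all posterior. Epithelial markers summed to 1601 to 1706 and 1115 to 1869 CPM (1 of 8 called, anterior), mural markers to 213 to 302 and 274 to 456 CPM (3 of 7 called, 1 posterior), and Schwann lineage markers to 49.5 to 55.5 and 56.4 to 77.8 CPM (1 of 5 called, posterior). The ranges were 1968 to 3552 and 295 to 1821 CPM for osteoblast, 378 to 390 and 326 to 555 CPM for endothelial, 33.5 to 39.4 and 16.4 to 239 CPM for neuronal, and 71.1 to 76.8 and 81.4 to 88.7 CPM for myeloid markers. In these last 4 lists edgeR and limma-voom called 0 genes, DESeq2 called 3, 1, 1 and 0, and 3, 1, 2 and 2 had an unadjusted p-value below 0.05 in edgeR.

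To ask how the T-box family is divided between the regions, the libraries were compared with edgeR's quasi-likelihood test, with p-values adjusted over the 15673 genes that had at least 10 counts in at least 3 libraries. A gene was called where the adjusted p-value was below 0.05, and each log2 fold change is given with the posterior over the anterior palate. Of the 9 members, 7 were tested and 4 were called, against 7.46% of all genes tested. Tbx22, Tbx15 and Tbx18 rose toward the posterior palate, where 4.87% of genes were called, and Tbx2 was higher in the anterior palate, where 2.59% were called. Tbx1, Tbx3 and Tbx4 were not called, and Tbx5 and Tbx20 had too few counts for the test. The 3 anterior and 3 posterior libraries did not overlap for 5 of the 7 members tested, 4 of them higher in the posterior and 1 in the anterior palate, against 28.0% of all genes tested (14.7% posterior, 13.4% anterior). The median log2 fold change of the 7 was 0.72, against -0.0040 for all genes tested. In bulk tissue, fewer cells of a type and less RNA per cell cannot be told apart.

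**Figure D1:**
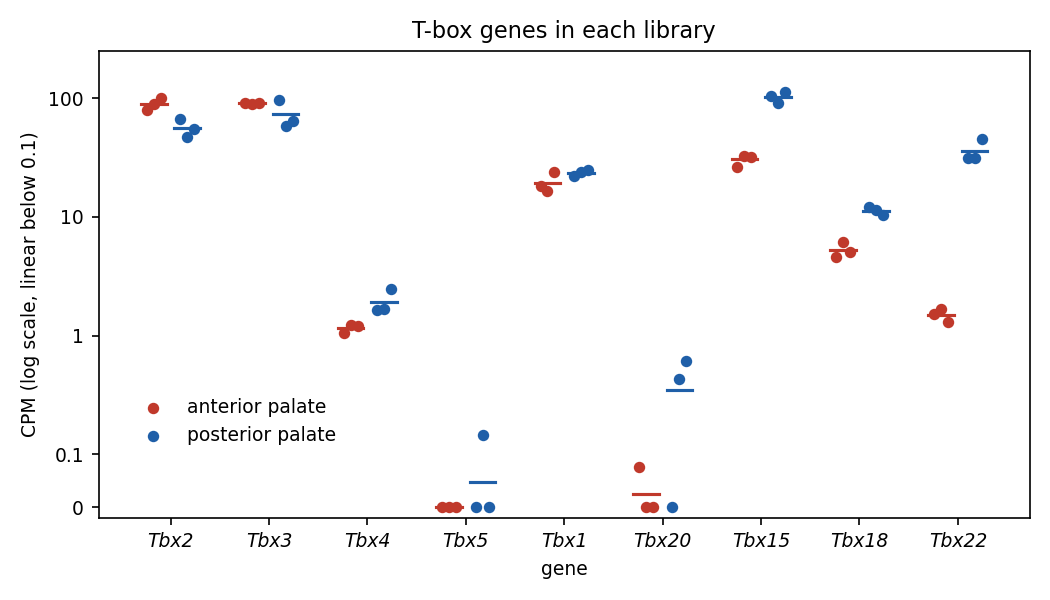
CPM of the 9 T-box genes in each of the 6 libraries, on an axis that is logarithmic above 0.1 and linear below it, with red points for anterior, blue points for posterior libraries and bars for the means (n = 3). The posterior points of Tbx22, Tbx15, Tbx18 and Tbx4 lie above their anterior points, those of Tbx2 lie below, and those of Tbx3 and Tbx1 overlap.

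Tbx22, Tbx15 and Tbx18, which form a subfamily, were all higher in the posterior palate, in the order Tbx22, Tbx15, Tbx18 of their fold changes. Tbx22 (ENSMUSG00000031241.18, chrX:107667964-107688978, plus strand) had 20, 23 and 15 counts in anterior replicates 1, 2 and 3 and 421, 432 and 662 counts in posterior replicates 1, 2 and 3. In CPM these were 1.52, 1.67 and 1.30 in the anterior and 31.5, 31.2 and 45.4 in the posterior libraries. The lowest posterior library thus lay far above the highest anterior one, and posterior replicate 3 was the highest of all. The fitted log2 fold change was 4.58 (standard error, SE, 0.22, adjusted p = 0.00014), a 23.8-fold difference, which was the 83rd largest toward the posterior palate among the genes tested. Each posterior library by itself lay between 4.38 and 4.92 above the anterior mean on the log2 scale.

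Tbx15 (ENSMUSG00000027868.12, chr3:99240381-99354259, plus strand), known for its part in skeletal development and coat patterning, was the most abundant of the 3. It had 26.2, 32.8 and 32.2 CPM in anterior replicates 1, 2 and 3 and 104.7, 90.5 and 111.5 CPM in posterior replicates 1, 2 and 3. The regions did not overlap, and the spread within each region was small beside the difference between them. Its log2 fold change was 1.75 (SE 0.13, adjusted p = 0.000451), a 3.36-fold difference.

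Tbx18 (ENSMUSG00000032419.9, chr9:87702800-87731260, minus strand), known from sinus node and ureter mesenchyme, was the lowest of the 3 in the posterior palate. The anterior libraries had 4.55, 6.11 and 5.02 CPM and the posterior libraries 12.1, 11.3 and 10.3 CPM, again without overlap. The log2 fold change was 1.10 (SE 0.17, adjusted p = 0.0089), a 2.14-fold difference. Without anterior replicate 1 it was 1.01 and its adjusted p-value from edgeR rose to 0.0544.

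The 3 genes were higher in each posterior library, including posterior replicate 1, which had the multimapping and mitochondrial shares of the anterior libraries. With a library-group term, which sets posterior replicates 2 and 3 against the other 4 libraries and takes the regional difference from posterior replicate 1 alone against the anterior libraries, edgeR gave log2 fold changes of 4.38 for Tbx22 (adjusted p = 6.46e-05), 1.78 for Tbx15 (adjusted p = 0.000338) and 1.20 for Tbx18 (adjusted p = 0.0110). In this fit posterior replicate 1 has no replicate of its own and is assumed to vary like the other libraries, which holds for each value given with this term. Summed skeletal muscle, chondrocyte, Schwann lineage and myeloid markers were higher in the same 3 posterior libraries, and summed osteoblast markers were higher in the anterior ones. Their part in these differences was not tested.

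**Figure D2:**
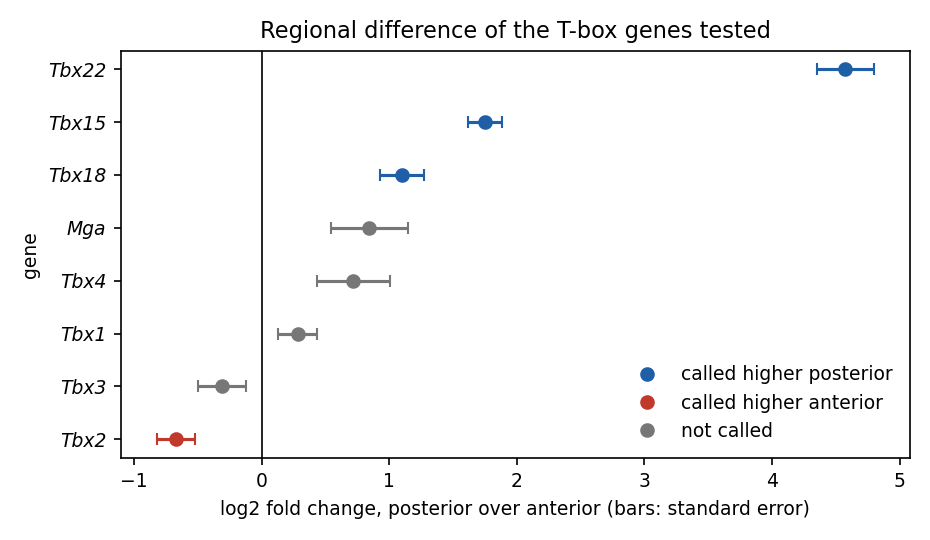
Log2 fold change, posterior over anterior palate, of the 7 members tested and of Mga, with bars for the standard error of the edgeR fit on 3 against 3 libraries. Blue points were called higher in the posterior palate (Tbx22 at 4.58, Tbx15 at 1.75, Tbx18 at 1.10), the red point was called higher in the anterior palate (Tbx2 at -0.67), and grey points were not called.

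Tbx2 and Tbx3 encode closely related repressors that act in cell cycle control and in limb, heart and mammary development. Tbx2 (ENSMUSG00000000093.7, chr11:85832551-85841948, plus strand) had 80.1, 89.5 and 99.2 CPM in anterior replicates 1, 2 and 3 and 66.8, 47.0 and 54.7 CPM in posterior replicates 1, 2 and 3. The regions did not overlap, and the gap between them was 66.8 against 80.1 CPM. Its log2 fold change was -0.67 (SE 0.15, adjusted p = 0.0368), a 1.59-fold difference toward the anterior palate. The call was lost in 5 of the 6 fits that left out a library, where the adjusted p-value lay between 0.0816 (without anterior replicate 1) and 0.139 (without anterior replicate 2). Over all genes, these 5 fits called between 498 and 637, against 1169 as reported. The fit that kept the call, without posterior replicate 1, called 7119. The call of Tbx2 was also lost with the library-group term (log2 fold change -0.42). It was lost as well with a term for embryo sex (adjusted p = 0.0573 in edgeR) and with the replicate number as a block (adjusted p = 0.0710 in edgeR). The direction held in all 17 alternatives. Summed osteoblast markers were also higher in each anterior library, and their part in the difference of Tbx2 was not tested.

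Tbx3 (ENSMUSG00000018604.19, chr5:119670669-119684724, plus strand), the gene of ulnar-mammary syndrome, had 90.9, 89.9 and 91.1 CPM in the anterior libraries. In posterior replicates 1, 2 and 3 it had 96.9, 57.7 and 64.4 CPM. Posterior replicate 1 was thus above all anterior libraries, and posterior replicates 2 and 3, which stood apart in their multimapping and mitochondrial shares, were below them. The log2 fold change was -0.31 (SE 0.19, adjusted p = 0.327). Without posterior replicate 1 it was -0.57 and called (adjusted p = 0.000435 in edgeR), in a fit that called 7119 genes, against 1169 in the fit as reported. With the library-group term it turned to 0.097, and no direction was thus established for Tbx3.

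Tbx1 (ENSMUSG00000009097.11, chr16:18580979-18590671, minus strand), a regulator of pharyngeal and palatal epithelium and of head muscle, had 18.3, 16.4 and 23.6 CPM in the anterior libraries and 22.01, 24.1 and 24.8 CPM in the posterior libraries. Anterior replicate 3 lay among the posterior libraries. The log2 fold change was 0.28 (SE 0.15, adjusted p = 0.292). Tbx4 (ENSMUSG00000000094.13, chr11:85886422-85916097, plus strand), a hindlimb and lung gene, was counted 14, 17 and 14 times in the anterior and 22, 23 and 36 times in the posterior libraries, or 1.06, 1.24 and 1.21 against 1.65, 1.66 and 2.47 CPM. These did not overlap, but the log2 fold change of 0.72 (SE 0.29) missed the threshold (adjusted p = 0.173 in edgeR).

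Tbx5 (ENSMUSG00000018263.12, chr5:119832668-119885219, plus strand), the gene of Holt-Oram syndrome, was counted 2 times in posterior replicate 2 and 0 times in the other 5 libraries. Tbx20 (ENSMUSG00000031965.16, chr9:24718138-24774303, minus strand), a regulator of cardiac development, was counted 1, 0 and 0 times in the anterior and 0, 6 and 9 times in the posterior libraries. Both were thus at or near the limit of detection at this depth. Of the other 8 family genes, Mga was tested, Tbx10 was at 0 in each library, and Eomes, Tbr1, Tbx6, Tbx19, Tbx21 and Tbxt had at most 7 counts in any library. Mga, which pairs a T-box with a Max-binding domain, had 88.7, 82.4 and 79.9 CPM in the anterior and 78.5, 181.6 and 190.3 CPM in posterior replicates 1, 2 and 3. The 2 high libraries were those that stood apart. The log2 fold change of Mga was 0.84 (SE 0.30, adjusted p = 0.139). DESeq2 called it (adjusted p = 0.0382), as did edgeR without the low-count filter (adjusted p = 0.0267), and with the library-group term edgeR gave -0.092 (adjusted p = 0.629).

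To compare levels between members, CPM were divided by the length of the longest transcript in kilobases. In the anterior palate the order was Tbx2 (24.7 ± 2.65 CPM per kb), Tbx3 (18.2 ± 0.125), Tbx15 (8.52 ± 1.03), Tbx1 (7.74 ± 1.49), Tbx18 (1.12 ± 0.171), Tbx4 (0.371 ± 0.0298) and Tbx22 (0.287 ± 0.0361), each as mean ± SD of 3 libraries. Tbx15 and Tbx1 overlapped there, and the other neighbours in the order did not. In the posterior palate the order was Tbx15 (28.7 ± 3.01 CPM per kb), Tbx2 (15.5 ± 2.76), Tbx3 (14.7 ± 4.22), Tbx1 (9.40 ± 0.568), Tbx22 (6.91 ± 1.55), Tbx18 (2.40 ± 0.190) and Tbx4 (0.611 ± 0.149), and Tbx2 and Tbx3 overlapped. Tbx22 thus moved from the last of the 7 to the fifth, above Tbx18, and Tbx15 from the third to the first. The order holds for these lengths. The exon union has 3517 bases for Tbx1 and 5550 for Tbx22, against 2511 and 5217 in the longest transcript. With the exon union, the posterior levels of Tbx1 and Tbx22 would overlap.

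The make-up of the family followed from these levels. The 9 members summed to 60.9 ± 4.64 CPM per kb anteriorly and 78.2 ± 8.65 CPM per kb posteriorly (SD, n = 3, two-sided exact permutation p = 0.1). Tbx2 and Tbx3 together held 71.3%, 70.6% and 69.4% of the sum in the anterior libraries and 44.5%, 35.8% and 34.6% in the posterior libraries. Tbx15, Tbx18 and Tbx22 together held 15.2%, 17.9% and 15.7% in the anterior and 44.6%, 49.3% and 52.1% in the posterior libraries. The posterior palate was therefore divided nearly evenly between the groups in replicate 1 and held more of the Tbx22 subfamily in replicates 2 and 3.

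By single members, Tbx2 held 40.5 ± 1.31% of the anterior and 19.7 ± 1.66% of the posterior sum, and Tbx15 14.0 ± 1.13% and 36.7 ± 2.11% (SD, n = 3). Tbx22 went from 0.474 ± 0.0835% to 8.86 ± 1.83%, Tbx3 from 29.97 ± 2.24% to 18.6 ± 3.73%, and Tbx18 from 1.84 ± 0.282% to 3.09 ± 0.415%. For each of these 5 members the anterior and posterior values did not overlap, and the exact permutation p was 0.1, the smallest that 3 against 3 libraries allow (0.18 adjusted over the 9 members). The share of Tbx1 was 12.7 ± 1.75% and 12.2 ± 1.85% (exact permutation p = 0.7). These shares are tied to each other, since a rise of one lowers the rest.

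**Figure D3:**
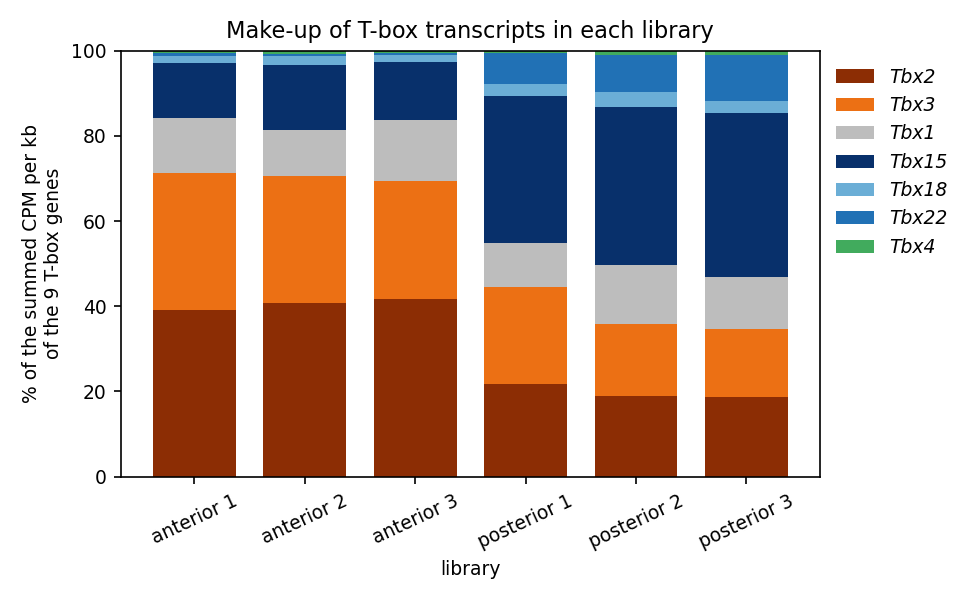
Share of the summed CPM per kb of the 9 T-box genes that each member holds in each library, as stacked bars in percent. Tbx2 and Tbx3 (brown and orange) hold 69.4% to 71.3% of the anterior bars, and Tbx15, Tbx18 and Tbx22 (blues) hold 44.6% to 52.1% of the posterior bars.

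To compare the regional bias of related or neighbouring members, the log2 ratio of 2 members was taken within each library, which removes the library's scaling. Of the 8 pairs listed, 5 were compared, and the pairs of Tbx1 with Tbx20 and of Tbx5 with Tbx4 and with Tbx3 were not, since a partner had too few counts. The ratio of Tbx22 to Tbx15 rose from -4.66, -4.84 and -5.18 in the anterior to -2.28, -2.08 and -1.85 in the posterior libraries, a difference of 2.82 (SE 0.20) on the log2 scale. That of Tbx22 to Tbx18 differed by 3.46 (SE 0.26), so that Tbx18 was the higher of the 2 in each anterior library and Tbx22 in each posterior library. The ratio of Tbx15 to Tbx18 differed by 0.64 (SE 0.15). Within the subfamily, the regional bias was thus steepest for Tbx22 and least steep for Tbx18.

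Tbx2 and Tbx3 were closer to each other. Their log2 ratio was 0.27, 0.45 and 0.58 in the anterior and -0.078, 0.16 and 0.22 in the posterior libraries, a difference of -0.33 (SE 0.13), without overlap. Tbx2 and Tbx4 lie 44.473 kb apart on chromosome 11, and their log2 ratio went from 6.06 ± 0.0909 anteriorly to 4.68 ± 0.439 posteriorly (SD, n = 3), a difference of -1.38 (SE 0.26). For each of the 5 pairs the exact permutation p was 0.1, the smallest possible with 3 against 3 libraries, and 0.1 after adjustment over the pairs.

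The genome around the members was then examined for genes that moved with them. Tbx2 and Tbx4, and Tbx3 and Tbx5 with 147.943 kb between them on chromosome 5, are old tandem pairs of the family. Of 66 other genes annotated within 250 kb of a member, 21 were tested and 1 was called, against the 7.46% of all genes tested. This was Tbx3os1 (chr5:119570130-119671365, minus strand), a noncoding gene that runs antisense to Tbx3 and shares 697 bases with it at its start. Tbx3os1 had 22.3, 17.7 and 16.9 CPM in anterior replicates 1, 2 and 3 and 11.2, 5.56 and 5.83 CPM in posterior replicates 1, 2 and 3. The regions did not overlap, although those of Tbx3 did. The log2 fold change was -1.33 (SE 0.28, adjusted p = 0.0320). The call was lost in 6 of 17 alternatives, among them the library-group term (log2 fold change -0.76, adjusted p = 0.0659 in edgeR) and the fits without anterior replicate 1 (adjusted p = 0.133), 2 (0.104) or 3 (0.0835) or without posterior replicate 2 (0.115) or 3 (0.110).

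Tbx3os1 was counted on the strand opposite to Tbx3. Its counts were 24.5%, 19.6% and 18.5% of those of Tbx3 in the anterior and 11.6%, 9.65% and 9.05% in the posterior libraries. Over all genes, the forward-strand counts were 4.33% to 5.28% of the reverse-strand counts. How many reads of Tbx3os1 came from the 697 shared bases was not tested. D030062O11Rik, antisense to Tbx18, had 3 to 11 counts and Gm43120, antisense to Tbx15, had 0 to 2 counts.

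The sequences before 2 of the 3 annotated starts of Tbx22 and before the start of Tbx18 are shown because both genes rose toward the posterior palate. The RefSeq windows (GRCm38.p6) hold 8 starts of 5 of the 9 members, and for Tbx22 the most upstream start and the one whose window held a motif match are given. The counts do not show which start was used. Each window has the 250 bases before the annotated start, 5′ to 3′ on the strand of the gene, and capitals mark a motif match.
Tbx22 upstream start, chrX:107667714-107667963, plus strand: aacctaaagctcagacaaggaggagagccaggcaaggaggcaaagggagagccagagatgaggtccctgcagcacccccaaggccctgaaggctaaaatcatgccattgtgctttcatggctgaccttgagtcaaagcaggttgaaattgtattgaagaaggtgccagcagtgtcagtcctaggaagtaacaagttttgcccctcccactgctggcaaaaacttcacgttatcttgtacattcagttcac
Tbx22 second start, chrX:107676262-107676511, plus strand: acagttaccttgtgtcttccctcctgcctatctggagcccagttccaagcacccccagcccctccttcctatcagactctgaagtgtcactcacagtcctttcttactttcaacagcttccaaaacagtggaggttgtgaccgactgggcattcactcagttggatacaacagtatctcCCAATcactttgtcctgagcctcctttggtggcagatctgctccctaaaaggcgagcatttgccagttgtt
Tbx18, chr9:87731261-87731510, minus strand: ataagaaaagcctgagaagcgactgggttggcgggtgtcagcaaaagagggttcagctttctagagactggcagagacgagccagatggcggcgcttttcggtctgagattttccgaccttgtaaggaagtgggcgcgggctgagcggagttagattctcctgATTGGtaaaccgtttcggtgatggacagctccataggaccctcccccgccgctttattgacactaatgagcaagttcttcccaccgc
The search covered GGTGTG as the core of T-box sites, the longer T-box site AGGTGTGA that contains it, the TATA box as TATAAA, the CCAAT box as CCAAT and the GC box as GGGCGG, each on both strands. The window of Tbx18 held a CCAAT box, read as ATTGG on this strand. Of the 3 windows of Tbx22, 1 held a CCAAT box, that of the second start, and no match was found in the other two. Among the windows of 250 bases before all 32851 annotated starts, 33.8% held CCAAT, 32.7% GGGCGG, 16.3% GGTGTG, 12.4% TATAAA and 1.12% AGGTGTGA. Of the 8 windows of members, 2 held CCAAT, 3 GGGCGG and 1 TATAAA, and GGTGTG was found in 0 of 8.

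To place the members among the genes that act with them, lists of 7 upstream regulators, 9 partners and corepressors and 11 targets of T-box factors in various tissues were read from the same fit. Of these 27 genes, 22 were tested and 9 were called, 4 higher in the posterior and 5 higher in the anterior palate, against 7.46% of all genes tested (4.87% posterior, 2.59% anterior), with a median log2 fold change of -0.030. The lists were chosen with earlier results of these data known, so this share is a description only. Of the genes called, Sall4, Myf5 and Myod1 reached 10 counts only in the region where they were higher. Where every library had to reach 10 counts, 5 were called. Among the upstream regulators 3 of 6 tested were called (median 0.080), among the partners and corepressors 2 of 7 (median 0.011), and among the targets 4 of 9 (median -0.072, also with Myf5 and Myod1 at the bound that 3 counts allow).

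Of the upstream regulators, Foxc2, a forkhead factor that acts upstream of Tbx1, rose from 2.19 ± 0.377 CPM anteriorly to 15.9 ± 2.86 CPM posteriorly (SD of 3 libraries, as for all genes of these lists, log2 fold change 2.85, SE 0.21, adjusted p = 0.000461 in edgeR). Mn1, a transcriptional cofactor required for Tbx22 expression in the palate, rose from 146 ± 7.07 to 217 ± 38.0 CPM (log2 fold change 0.58, adjusted p = 0.0448), and its call was lost in 11 of 17 alternatives, among them each fit without a library other than posterior replicate 1 (adjusted p from 0.0521 to 0.174). Shh, the hedgehog ligand of the palatal epithelium, was higher in the anterior palate, at 29.1 ± 6.91 against 12.0 ± 3.08 CPM (log2 fold change -1.27, adjusted p = 0.0196), and its adjusted p-value was 0.0871 without anterior replicate 2, 0.0756 without anterior replicate 3 and 0.0834 without posterior replicate 2. Aldh1a2, which makes retinoic acid, had 70.5 ± 15.3 and 29.98 ± 15.3 CPM without overlap but was not called (log2 fold change -1.23, adjusted p = 0.0937). Bmp4 had 39.8 ± 10.1 and 47.2 ± 10.4 CPM and Foxc1 26.8 ± 2.00 and 25.2 ± 8.44 CPM, and neither was called.

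Among the partners, Tle3, a Groucho corepressor, had 117 ± 4.17 CPM anteriorly and 84.9 ± 3.27 CPM posteriorly (log2 fold change -0.46, adjusted p = 0.0180 in edgeR). Its call was lost in 6 of 17 alternatives, 4 of which left out a library, anterior replicate 1 (adjusted p = 0.0756), 2 (0.114) or 3 (0.0855) or posterior replicate 2 (0.0942). Sall4, a zinc finger partner of Tbx5, was counted 25, 28 and 29 times in the anterior and 2, 5 and 4 times in the posterior libraries (log2 fold change -2.98, SE 0.37, adjusted p = 0.00355 in edgeR). Sall4 thus passed the filter through the anterior libraries only, where it was higher. Tle1 (53.9 ± 10.2 and 69.7 ± 8.39 CPM), Sall1 (4.19 ± 0.387 and 5.55 ± 1.02 CPM) and Ripply3 (3.42 ± 0.398 and 3.46 ± 1.35 CPM) were not called.

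Of the targets, Fgf10, the growth factor that T-box genes drive in limb and heart precursors, had 29.99 ± 1.05 CPM anteriorly and 14.4 ± 1.77 CPM posteriorly (log2 fold change -1.06, adjusted p = 0.00297 in edgeR). Isl1, a LIM homeobox gene of heart and limb precursors, had 12.3 ± 0.962 and 3.04 ± 0.683 CPM (log2 fold change -2.01, adjusted p = 0.00135). Both were called in all 17 alternatives. Myf5 and Myod1, the myogenic regulators, were counted 1 to 3 and 1 to 2 times in the anterior libraries and 37 to 45 and 257 to 315 times in the posterior libraries (adjusted p = 0.00138 and 5.67e-05 in edgeR), and both are also among the 10 skeletal muscle markers. Both passed the filter through the posterior libraries only, where they were higher. Gja1 (170 ± 15.9 and 186 ± 19.1 CPM), Cdkn1a (57.4 ± 13.2 and 54.7 ± 4.31 CPM) and Smad7 (31.3 ± 6.02 and 27.2 ± 2.89 CPM) were not called.

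**Figure D4:**
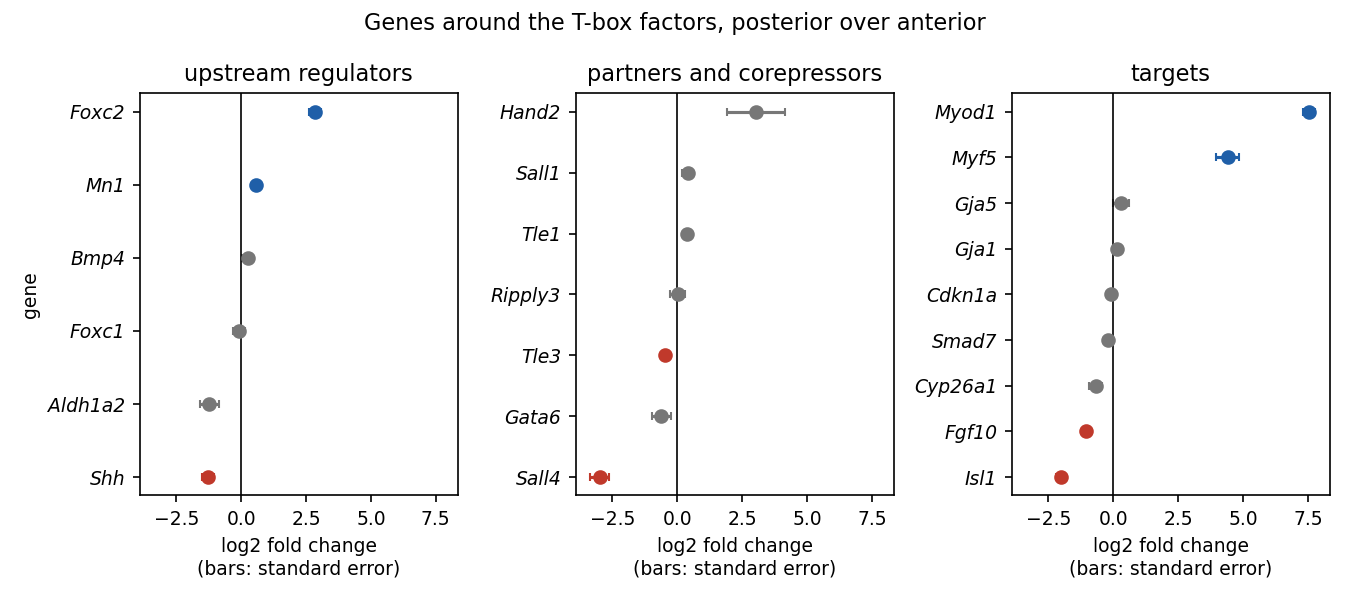
Log2 fold change, posterior over anterior palate, of the 22 tested upstream regulators, partners and targets, with bars for the standard error, blue for called higher in the posterior, red for called higher in the anterior palate and grey for not called. Foxc2, Mn1, Myf5 and Myod1 lie on the posterior side, and Shh, Tle3, Sall4, Fgf10 and Isl1 on the anterior side. The values of Myf5 and Myod1 are fitted against 1 to 3 anterior counts and are not bounds.

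The calls of the members differed in how far they depended on the processing. Over the 17 alternatives that give each gene a value, the log2 fold change of Tbx22 lay between 4.38 and 4.67 and that of Tbx15 between 1.65 and 1.83, and both were called in each. Tbx18 lay between 0.99 and 1.23 and was called in 16 of 17. Tbx2 lay between -0.81 and -0.42 and was called in 9 of 17. Tbx4 (0.49 to 0.82) and Tbx1 (0.17 to 0.44) kept their sign and were called in 0 of the 17 alternatives, which include DESeq2 and limma-voom, and in the edgeR fit as reported Tbx4 had an unadjusted p-value of 0.0378 and Tbx1 one of 0.108.

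**Figure D5:**
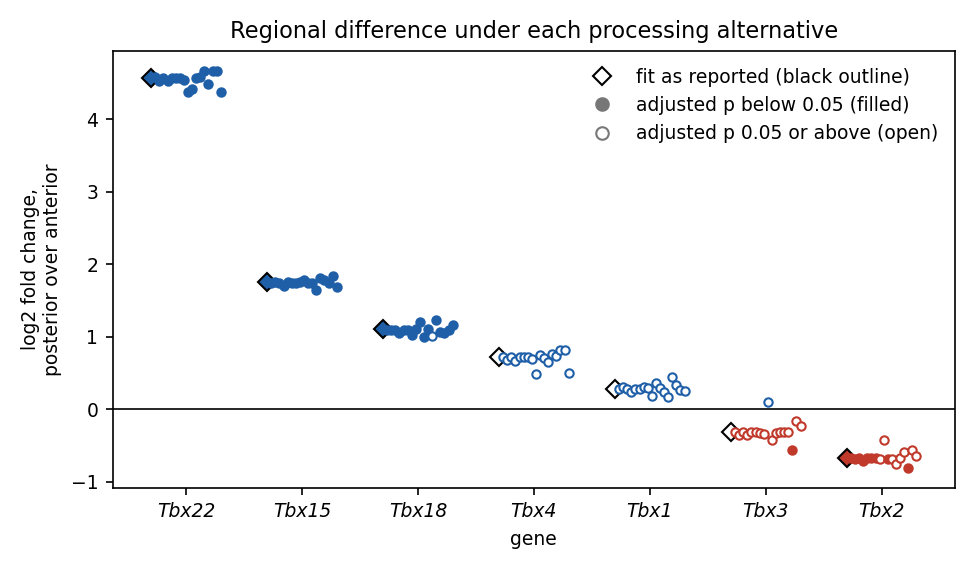
Log2 fold change, posterior over anterior palate, of the 7 members tested, as reported (black diamonds) and under each of the 17 alternatives (circles, filled where the adjusted p-value was below 0.05). The points of Tbx22, Tbx15 and Tbx18 stay above 0 and nearly all are filled, 8 of the 17 circles of Tbx2 are open, and 1 circle of Tbx3 lies above 0.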

How the data were processed

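The authors deposited, for each of 6 libraries, unnormalized read counts of Ensembl genes, unstranded and by strand, in STAR's layout. The methods and the submitters' processing notes name mm10, HISAT2, StringTie and DESeq2 1.30.1. The reverse-stranded counts were used, 18.95 to 23.1 times those of the other strand. Symbols, positions and lengths came from GENCODE M21 (GRCm38), which paired 52073 of 56691 identifiers and need not be the annotation behind the counts. Genes that reached 10 counts in 3 or more libraries were normalized by TMM and tested with edgeR 4.0.16 in R 4.3.3 with region as the only term. Ratios and shares were compared by two-sided exact permutation tests. Alternatives used DESeq2 1.42.0, limma-voom (limma 3.58.1), other scalings, filters and strands, a replicate block, terms for library group, transcript length and embryo sex, a log2 fold change of at least 1, and each library left out.

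The members, gene lists and marker lists were chosen with earlier results of these data known, and the library-group, length and sex terms came from an earlier analysis. Named were all members and family genes, list genes that were called plus the 3 most abundant not called of each list, called neighbours and antisense genes, and for each called member the 3 genes most like it. Neighbours just above the threshold were named as well. Genes antisense to Tbx15 and Tbx18 and the family genes under the filter were named with their counts only. The target list was reduced by 1 gene, which is not reported here. The limit that a count of 0 allows covers counting error only.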

Additional observations from a re-analysis of the deposited data

How the results depend on the processing

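The number of genes called, 1169, was 1978 with DESeq2, 2162 without the low-count filter, and between 498 and 7119 with a library left out, the highest without posterior replicate 1. Of the T-box members, 4 were called, and between 2 (without anterior replicate 1, where Tbx2 and Tbx18 were lost) and 5 (without posterior replicate 1, where Tbx3 was added) with a library left out. Of the upstream, partner and target genes 9 were called, 5 where every library had to reach 10 counts (which Sall4, Myf5 and Myod1 did not), and between 4 and 10 with a library left out. The log2 fold change of Tbx3 turned to 0.097 with the library-group term. With exon union lengths Tbx2 held 45.9% of the summed anterior and 22.1% of the summed posterior level, Tbx3 25.6% of the anterior and Tbx15 39.0% of the posterior level. The exon union has 3626 bases for Tbx2, as does its longest transcript, and 6624 bases for Tbx3, whose longest transcript has 4982. These shares change with the lengths used, and the cause of the other changes was not tested. Of the 119 log2 fold changes of members under these alternatives, 108 kept direction and side of the threshold.

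Alternatives for the pairs, for the count of neighbouring genes and for the log2 fold changes of single list genes and Tbx3os1 were added after the data were seen. The pairs kept their direction with unstranded counts and with each library left out. The count of neighbouring genes called, 1, was 4 with DESeq2, 2 with limma-voom, 2 with library size only, 3 without the low-count filter, 3 with the length correction, 0 with the library-group term, and between 0 and 6 with a library left out.

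The deviations of anterior and posterior libraries with a shared number were hardly correlated (-0.053, 0.045 and 0.036 for replicates 1, 2 and 3). Posterior replicates 2 and 3 stood apart from posterior replicate 1, which can hide a shared deviation, so this check cannot exclude pairing. Sex also matched by number, with male, female and male for replicates 1, 2 and 3 of either region. Whether both regions came from the same embryos was thus not settled, and the fit as reported treats the libraries as unpaired. With the replicate number as a block, 829 genes and 3 members were called, and Tbx2 had a log2 fold change of -0.68 (adjusted p = 0.0710 in edgeR). Under the block 8 list genes and 1 neighbour were called. Depth limits Tbx5, Tbx20 and 7 other family genes, which have at most 9 counts in any library.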

Other observations

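For each member that was called, the genes with a mean of at least 10 CPM over the 6 libraries whose log2 CPM followed it most closely over the 6 libraries were listed by Pearson correlation. The correlations are descriptions over 6 libraries that share 2 regions, so that any gene with a clear regional difference scores high, and a gene that is low in 1 region can pass through its level in the other. Tbx22 was followed by Cdh15 (r = 0.999, 1.34 CPM in the anterior and 19.96 CPM in the posterior palate), a cadherin of muscle precursors, by Wnt11 (r = 0.998, 9.33 and 66.5 CPM) and by Synpo2l (r = 0.998, 0.667 and 24.1 CPM), a gene of striated muscle. Tbx15 was followed by Tgfbi (r = 0.999, 70.6 and 283 CPM), which encodes a matrix protein, by Hs3st5 (r = 0.998) and by Actc1 (r = 0.998, 1.91 and 217 CPM), the cardiac actin of embryonic muscle. Tbx18 was followed by Arsi (r = 0.995, 13.6 and 29.5 CPM), Dtx4 (r = 0.990) and Nfatc2 (r = 0.987). Tbx2 was followed by Lhx8 (r = 0.996, 102.9 and 51.3 CPM), a LIM homeobox gene of the oral mesenchyme, by Utp4 (r = 0.993) and by Kctd15 (r = 0.992).

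Hand2, a listed partner, was uneven within the posterior palate. It had 47, 196 and 4 counts in posterior replicates 1, 2 and 3 against 10, 11 and 7 counts in the anterior libraries, and was not called (log2 fold change 3.03, standard error 1.12, adjusted p = 0.150 in edgeR). The summed level of the 5 neuronal markers had the same order over the posterior libraries, with 38.5, 239 and 16.4 CPM in posterior replicates 1, 2 and 3, and their part in the level of Hand2 was not tested. 2610027K06Rik, which lies 0.328 kb from Tbx2 on the other strand, had 16, 29 and 18 counts in the anterior and 11, 5 and 9 counts in the posterior libraries (log2 fold change -1.43, adjusted p = 0.0733), and both genes were chosen after their values were seen.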
